A study of Mus musculus with 8 samples.

Results

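Patrolling non-classical monocytes were studied in mouse liver 48 hours after a single dose of β-glucan (BG), and 76 of the 53654 kept barcodes of 8 single-cell libraries met the rule that defines them. A cell was counted as a patrolling monocyte when it held at least 1 UMI (unique molecular identifier, 1 counted RNA molecule) of Csf1r, UMIs of at least 2 of Ace, Treml4, Cd300e, Eno3 and Adgre4, and no UMI of Ccr2, F13a1, Clec4f, Timd4, Siglech, Cd79a, Cd3e or Kdr. All mice were female C57BL/6J animals aged 9 weeks, and each library was made from the liver of 1 mouse. The control group (replicates 1 to 4) is labelled only as control, with no injection named, and the BG group (replicates 5 to 8) received 1.2 mg of Imprime PGG (odetiglucan), a soluble yeast β-glucan, intravenously. Livers were flushed with PBS and digested with collagenase and DNase, and dead cells were removed. The sequenced suspension held CD45+ cells together with cells that a Ficoll gradient recovered from the remaining fraction. The labels name no tumor, transgene or deletion. The labels name no batch, so any difference in handling between the groups cannot be told apart from the treatment.

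Patrolling monocytes are the Ly6C-low subset of blood monocytes. They crawl along the inner wall of small vessels, scavenge particles and dying cells there, and arise in large part from classical Ly6C-high monocytes. That conversion and the survival of the subset depend on the nuclear receptor Nr4a1, and the chemokine receptor Cx3cr1 and the integrin LFA-1, whose alpha chain is Itgal, hold the cells at the endothelium. In the liver they pass through the sinusoids, where Kupffer cells, the resident macrophages, take up blood-borne particles. Classical monocytes carry Ccr2 and Ly6c2 and give rise to inflammatory macrophages.

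Control libraries held 39612380 to 46211839 UMIs and BG libraries 44184117 to 60654583 UMIs, of which 6784 to 8378 and 4644 to 6814 barcodes were kept. BG replicate 5 stood apart: it held 27873 barcodes with a median of 34 detected genes, and 66.6% of its UMIs were mitochondrial. The 28 pairs of libraries shared 6 to 31 kept barcodes each, and no patrolling monocyte carried a barcode found in another library. No doublet caller was used.

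The 76 cells were spread over all 8 mice. Control replicates 1 to 4 gave 8, 15, 6 and 4 cells (33 in all), and BG replicates 5 to 8 gave 11, 6, 14 and 12 cells (43 in all). Together they held 273445 UMIs, 17884 to 59466 per library, with a median of 3191 UMIs (859 to 11275) and 1343.5 genes per cell. Exactly 2 of the 5 markers were found in 27 cells, 3 in 28 cells, 4 in 17 cells and all 5 in 4 cells.

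The cells were chosen by the detected UMIs of the genes in the rule, which are given as a description only. Ace, a peptidase of the vessel surface, was found in 81.6% of the 76 cells, against 0.32% of T cells (barcodes with Cd3e and no Csf1r, with median depths of 2958 to 4825.5 UMIs per library). Treml4, a receptor that binds dying cells, was found in 72.4%, the adhesion receptor Adgre4 in 65.8%, the enolase Eno3 in 47.4% and the activating receptor Cd300e in 30.3%, and their shares in T cells were 0.48%, 0.37%, 2.31% and 0.09%. Csf1r, the receptor for the growth factor CSF1 of monocytes and macrophages, stood at 954, 499, 834 and 507 CPM (counts per 1000000 UMIs, scaled by TMM, the trimmed mean of M values) in control and at 834, 517, 728 and 609 in BG. Ace stood at 554, 460, 437 and 56.4 CPM in control, where the lowest value is 1 UMI in the 4 cells of replicate 4, and at 534, 1035, 364 and 584 in BG. Both genes overlapped between the groups.

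**Figure D1:**
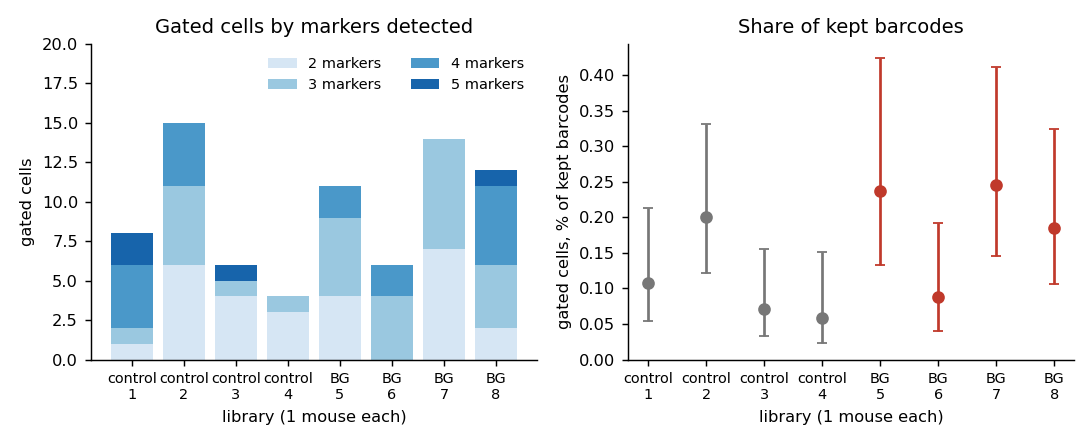
Patrolling monocytes in each of the 8 liver libraries. The left panel stacks the number of gated cells by how many of the 5 markers were detected, and the right panel plots gated cells as a percentage of kept barcodes with 95% Wilson intervals (control grey, BG red). Counts ran from 4 to 15 cells, and the groups overlapped in both panels.

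The rule was strict. Of 550 barcodes with Csf1r and at least 2 markers, 474 held a UMI of a barred gene, most often Ccr2 (267 barcodes), Cd3e (216), Clec4f (183), Kdr (173) and Timd4 (137). F13a1, Cd79a and Siglech were found in 66, 42 and 12 of them. Another 48 barcodes had Csf1r and 1 marker, and 30 had at least 2 markers without Csf1r. In cells just inside the rule, with 2 markers, Spn was at 306 counts per 1000000 pooled UMIs, Ear2 at 255 and Nr4a1 at 391, whereas in those with 1 marker they were at 81.4, 16.3 and 130. The 474 barcodes with a barred gene lay between, with 134, 97.0 and 201.

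Genes that the rule did not use were read against 155 classical monocytes and 133 Kupffer cells gated in the same libraries. Classical monocytes were gated by Csf1r, Ccr2 and at least 2 of Ly6c2, F13a1, Chil3, Vcan and Fn1. Kupffer cells were gated by Csf1r and at least 2 of Clec4f, Timd4, Vsig4, Cd5l and Marco. Both gates barred Ace, Treml4 and Adgre4. Since the gates chose the cells, these levels are given without a test, as pooled CPM (counts per 1000000 UMIs of the pooled cells, with no TMM scaling). Of 24 identity genes of patrolling monocytes, 23 were higher than in classical monocytes, 20 higher than in Kupffer cells and 19 higher than in both, and 15 stood above classical monocytes in at least 7 of the 8 libraries. Nr4a1 was at 658 in patrolling monocytes, 163 in classical monocytes and 60.7 in Kupffer cells. Spn, which encodes the sialoglycoprotein CD43, was at 402, 68.3 and 21.2. Ear2, a secreted ribonuclease, was at 336, 26.1 and 112. The sphingosine receptor S1pr5 was at 95.1, 7.5 and 3.0, and Pglyrp1, a peptidoglycan-binding protein, at 227, 31.0 and 15.2. Itgal was at 980, 235 and 452. Each of Nr4a1, Spn, Ear2, Itgal and Pglyrp1 was higher in patrolling than in classical monocytes in all 8 libraries.

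Other identity genes separated the cells from only 1 of the other types. Cx3cr1 was close in patrolling and classical monocytes, at 322 and 251, and at 0 of 329413 UMIs in Kupffer cells. The transcription factor Tcf7l2 was at 87.8 in patrolling and 21.1 in classical monocytes, but at 325 in Kupffer cells. Fcgr4, an IgG receptor, was at 219 in patrolling monocytes, 22.4 in classical monocytes and 234 in Kupffer cells. Ifitm6 was the 1 identity gene that was lower than in classical monocytes, at 347 against 476.

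Of 15 classical monocyte markers with a UMI, 1 was higher in patrolling than in classical monocytes. Ly6c2, Chil3, Vcan and Fn1 helped choose the classical monocytes, so their direction was largely set in advance. Lyz2, lysozyme, was at 7215 against 18238, and Ly6c2 at 1174 against 2379. Plac8 was at 3302 against 3734, a smaller gap. Against Kupffer cells, 12 of the 15 were higher. None of 11 Kupffer cell markers was higher than in Kupffer cells, but 9 were higher than in classical monocytes. Vsig4 and Cd5l helped choose the Kupffer cells. The identity genes of the label were thus present, together with UMIs of Kupffer cell markers.

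**Figure D2:**
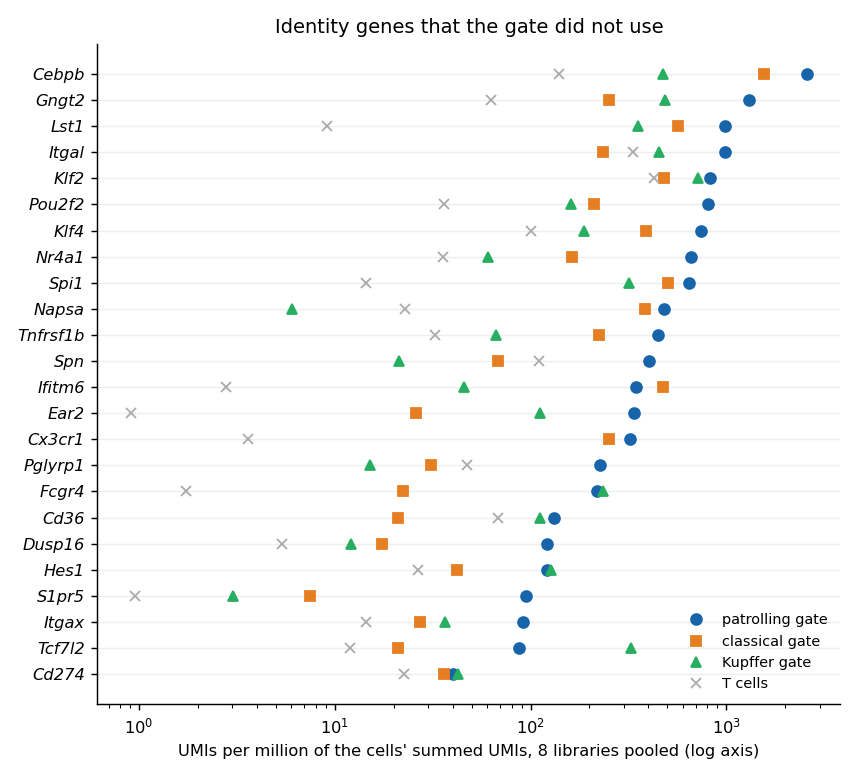
Levels of 24 identity genes of patrolling monocytes that the rule did not use, as pooled CPM of 8 libraries on a log axis, in 76 patrolling monocytes (blue), 155 classical monocytes (orange), 133 Kupffer cells (green) and T cells (grey crosses). Cx3cr1 has no green point because Kupffer cells held 0 UMIs of it. All but Ifitm6 lie to the right of the classical monocytes.

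Some of the 76 cells also held many UMIs of other cell types. The complement genes C1qa, C1qb and C1qc, made by macrophages, summed to 10 or more UMIs in 6 cells, which held 98.04% of all such UMIs. The MHC class II genes H2-Aa, H2-Ab1 and H2-Eb1 summed to 30 or more UMIs in 10 cells, which held 90.4% of these. A single cell of control replicate 2 held all 45 S100a8 and all 62 S100a9 UMIs, genes of neutrophils. In all, 11 cells passed 1 of these limits, 7 of 33 control cells (5 in replicate 2 and 1 each in replicates 3 and 4) and 4 of 43 BG cells (3 in replicate 7 and 1 in replicate 8). Results were therefore also computed on the other 65 cells. In the plot of single cells the 6 cells with complement UMIs lie apart, whereas class II sums of the cells under the limit reached 23 UMIs.

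**Figure D3:**
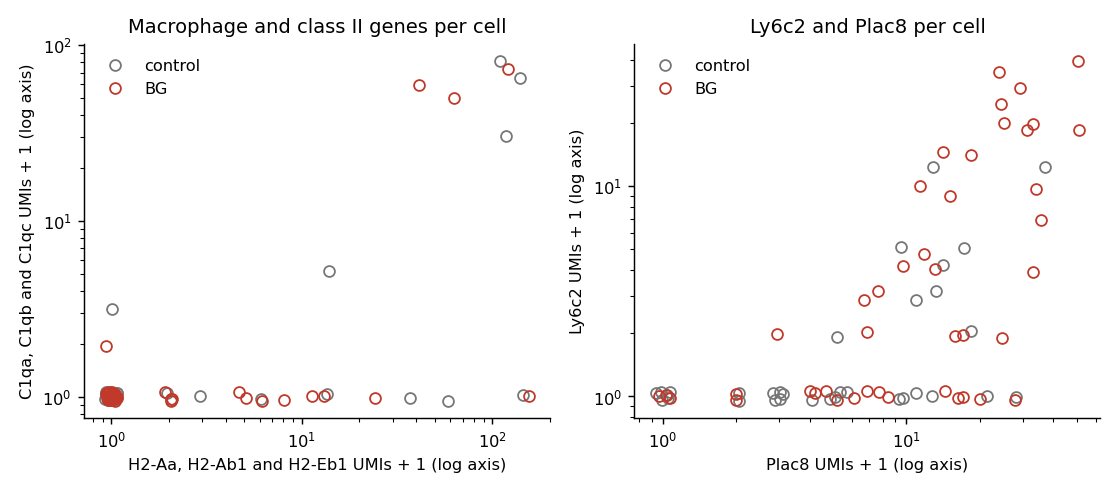
UMIs in each of the 76 patrolling monocytes (control grey, BG red), plotted as UMIs plus 1 on log axes with a small random shift. Left, the sum of 3 complement genes against the sum of 3 MHC class II genes, where 6 cells with 10 or more complement UMIs stand apart. Right, Ly6c2 against Plac8, where 10 BG cells and 2 control cells reached 10 or more Ly6c2 UMIs.

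The number of patrolling monocytes was compared as a share of kept barcodes. The shares were 0.108%, 0.201%, 0.0716% and 0.0590% in control replicates 1 to 4 and 0.237%, 0.0881%, 0.245% and 0.186% in BG replicates 5 to 8. The 95% Wilson intervals, which cover counting error only, spanned 0.0229% to 0.331% over the control libraries and 0.0404% to 0.424% over the BG libraries. Control replicate 2 lay above 2 BG libraries, so the groups overlapped. The mean was 0.110% ± 0.0640 (SD, n = 4) in control and 0.189% ± 0.0723 (SD, n = 4) in BG. The difference of 0.0791 percentage points did not pass an exact permutation test (two-sided p = 0.143, adjusted over 2 share tests p = 0.286, with 0.0286 the smallest p of 70 splits). With at most 10% mitochondrial UMIs allowed, 13 control and 6 BG cells were left and the difference turned to -0.0723 percentage points (exact permutation p = 0.6). The median mitochondrial share of the gated cells was 10.7% to 15.95% in control and 12.7% to 19.6% in BG libraries, and its part in the comparison was not tested.

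The ratio to classical monocytes overlapped between the groups as well. There were 0.296, 0.682, 0.667 and 0.267 patrolling monocytes for each classical monocyte in control libraries and 0.846, 0.250, 0.609 and 0.545 in BG libraries. The mean log2 ratio was -1.20 ± 0.73 (SD, n = 4) in control and -0.96 ± 0.75 (SD, n = 4) in BG, a difference of 0.24 (exact permutation p = 0.743, adjusted over 2 tests p = 0.743). As a share of barcodes with Csf1r, patrolling monocytes made up 2.63% ± 1.49 in control and 2.78% ± 0.865 in BG (SD, n = 4 each; exact permutation p = 0.886).

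The response to BG was tested on UMI counts summed per mouse, with edgeR's quasi-likelihood test and a call at an adjusted p under 0.05 with a log2 fold change past 0.5 in either direction. The planned minimum of 10 cells left 1 control library (replicate 2) and 3 BG libraries (replicates 5, 7 and 8). Of 882 genes tested there, 2 were lower in BG (0.227% of genes tested) and 0 were higher (0%), with 40 genes at an unadjusted p under 0.05 and the same counts of 2 and 0 calls by DESeq2. The 2 genes were S100a8 and S100a9, and every UMI of both came from the 1 control cell described above. A fit with all 8 libraries, added after this was seen, is the base of the results that follow.

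Across all 8 libraries, 388 genes passed the filter on low counts, and 4 of them rose after BG (1.03%) while 0 fell (0%). At an unadjusted p under 0.05 there were 35 genes, and DESeq2 gave 4 and 0 calls. The 4 genes were Ifi27l2a, Ly6i, Ly6c2 and Plac8, of which Ly6i passed the filter through the BG libraries alone and Ly6c2 mainly through them. Every BG library lay above every control library for 16 genes (4.12%), and every BG library lay below for 4 genes (1.03%).

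Ifi27l2a, an interferon-induced gene, had the smallest adjusted p. It lies at chr12:103433873-103443680 (GRCm38.p6). Its level was 585, 1401, 795 and 733 CPM in control replicates 1 to 4 and 5138, 3293, 4857 and 2411 CPM in BG replicates 5 to 8. All BG libraries were above all control libraries. The mean went from 878 ± 359 to 3925 ± 1295 CPM (SD, n = 4 each), a log2 fold change of 2.11 (SE 0.30, edgeR adjusted p = 0.00118). The change was spread over the cells: the median cell held 2 UMIs in control and 12 in BG, and 23 of 33 control cells and all 43 BG cells held at least 1. T cells, which were not gated on this gene, went from 315 to 1477 pooled CPM. Per UMI of the T cell receptor gene Trbc2, BG T cells held 1.60 Ifi27l2a UMIs and BG patrolling monocytes 41.9. Control patrolling monocytes held 6.94, BG classical monocytes 48.4 and BG Kupffer cells 15.25. Cells with little Trbc2 have a high ratio in any case, so these values are a description.

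Ly6c2 and Ly6i encode small surface proteins of the Ly6 family, and Ly6c2 is part of the Ly6C antigen that separates classical from patrolling monocytes. Both lie in the Ly6 cluster, Ly6c2 at chr15:75108161-75112066 and Ly6i at chr15:74979534-74983434, among close paralogs that can share reads, so the split of reads between them is uncertain. Ly6c2 was at 492, 326, 199 and 113 CPM in control and at 3703, 988, 2092 and 863 CPM in BG. The lowest BG library stood above the highest control library. The mean rose from 283 ± 165 to 1911 ± 1316 CPM (SD, n = 4 each), a log2 fold change of 2.65 (SE 0.48, edgeR adjusted p = 0.0051). Control libraries held 16, 17, 5 and 2 Ly6c2 UMIs, so the gene passed the filter on low counts mainly through the BG libraries. Its call after the filter is a description. With no filter the log2 fold change was also 2.65.

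The Ly6c2 UMIs were spread unevenly over the cells. They were found in 9 of 33 control cells (27.3%) and 25 of 43 BG cells (58.1%), and 5 BG cells held 52.3% of the 281 BG UMIs. Kupffer cells, which should lack the gene, showed a UMI in 8.77% of control and 6.58% of BG cells, at library medians of 1251 to 2566 UMIs against 2260 to 4105 for patrolling monocytes. Classical monocytes, whose gate uses Ly6c2 as a marker, held 896 pooled CPM in control and 3603 in BG, and T cells 230 and 430. Within the BG cells, the 25 with Ly6c2 held 5437 pooled CPM of Plac8 and 4893 of Ifi27l2a, and the 18 without it held 2386 and 2133. Nr4a1 was at 763 in the former and 868 in the latter, Spn at 387 and 488, and Ear2 at 366 and 289. Within the control cells the gap was wider, with Nr4a1 at 238 in the 9 cells with Ly6c2 and 677 in the 24 without it. Spn was at 238 and 486, and Ear2, in the opposite order to BG, at 91.6 and 530. The 9 cells include those of 7249 and 4378 UMIs in control replicate 2 and of 11275 UMIs in control replicate 4. All of these held many UMIs of other cell types, and 0, 1 and 0 UMIs of Nr4a1. Other groups of the split held such cells too, and their part in the gap was not tested. Cells that met the rule with 2 markers held more Ly6c2 (2596 pooled CPM in 13 BG cells) than those with 3 or more (1430 in 30 BG cells). These splits by a measured gene are descriptions and were not tested.

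Ly6i was low in every control library, at 92.3, 76.8, 39.7 and 0 CPM (3, 4, 1 and 0 UMIs). In BG it stood at 367, 376, 528 and 406 CPM (11, 8, 29 and 16 UMIs), above all controls. The mean went from 52.2 ± 41.2 to 419 ± 74.1 CPM (SD, n = 4 each), a log2 fold change of 2.73 (SE 0.44) that rests on 8 against 64 UMIs. The gene passed the filter on low counts through the BG libraries alone, where it is high, so its call after the filter is a description. In the fit of 10145 genes with no filter, the log2 fold change was 2.69 (edgeR adjusted p = 0.00345). That fit also called Apoe as lower (edgeR adjusted p = 3.1e-09), of which 1 cell held 43.4% of the control UMIs. Classical monocytes held it at 37.3, 19.1, 0 and 16.9 CPM in control and at 196, 55.2, 106 and 51.9 CPM in BG, again with every BG library above every control library. The responses of the 2 monocyte types differed by 0.66 on the log2 scale (SE 1.03, edgeR adjusted p = 0.998). Kupffer cells held 0 UMIs of it, and T cells 0.72 and 2.5 pooled CPM in control and BG.

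Plac8, a cysteine-rich protein of granulocytes and monocytes and a marker of the classical subset, lies at chr5:100551589-100572253. Its level was 1447, 2571, 1629 and 1635 CPM in control and 5705, 4422, 4766 and 3172 CPM in BG. No BG library reached down to a control library. The mean rose from 1820 ± 508 to 4516 ± 1047 CPM (SD, n = 4 each), a log2 fold change of 1.28 (SE 0.23, edgeR adjusted p = 0.0051). The median cell held 4 UMIs in control and 14 in BG, and 27 of 33 and 40 of 43 cells held at least 1.

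Calls differed with the cells and libraries kept. Under at most 10% mitochondrial UMIs (176 genes) none was called, with at least 3 markers Irf7 alone, and with no UMI of 16 genes of other cells Ifi27l2a alone, whereas on the 65 cells without many UMIs of other types Ifi27l2a, Irf7, Plac8 and Ly6c2 were called. Without control replicate 3, Ly6c2 and Plac8 were lost (adjusted p = 0.0546 for each) and 2 calls were left, and Plac8 was also lost without BG replicate 5 (adjusted p = 0.0636). The log2 fold changes stayed positive where calls were lost, at 2.19 to 2.38 for Ifi27l2a, 2.49 to 2.64 for Ly6c2 and 1.13 to 1.97 for Plac8.

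**Figure D4:**
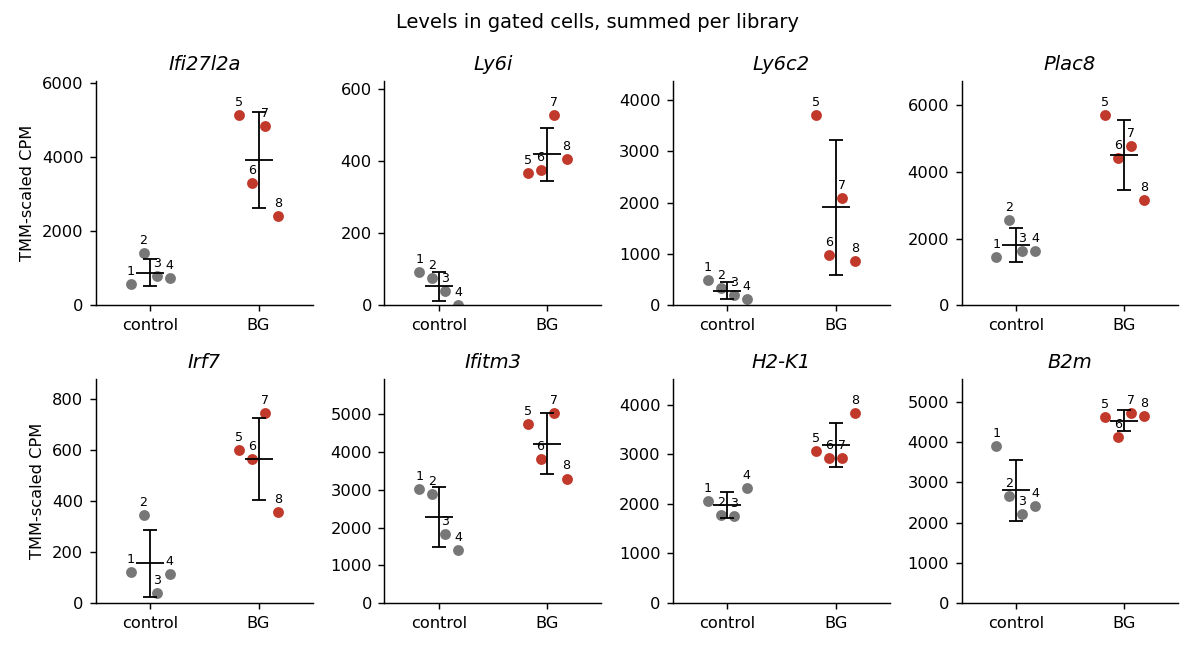
Levels of 8 genes in patrolling monocytes, as TMM-scaled CPM of the UMIs summed per library, with the replicate number beside each point (control grey, BG red) and the mean and SD in black. The upper row shows the 4 called genes, and the lower row shows 4 genes that were not called. In all 8 panels every BG library lies above every control library. The 8 genes shown are all among the 16 of 388 tested genes (4.12%) with that pattern, so the panels are a selection.

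Type I interferon genes, which cells switch on behind the interferon receptor, were the list with the largest median. Of 46 genes, 44 had a UMI and 7 passed the filter, 1 rose (Ifi27l2a), beside 1.03% of all genes tested, and 3 of the 7 were higher in every BG library than in every control library, beside 4.12%. The median log2 fold change of the 7 was 0.86, beside 0.00093 over all 388 genes. Low genes could pass the filter only if high in 1 group, and Irf7 passed it mainly through the BG libraries. The median and the count of 3 are therefore descriptions. Irf7, the transcription factor that amplifies interferon production, was at 123, 345, 39.7 and 113 CPM in control and at 600, 564, 746 and 355 CPM in BG. The groups did not overlap, but the log2 fold change of 1.61 (SE 0.44) was not called (edgeR adjusted p = 0.117). In control replicate 2, 14 of its 18 UMIs were in a single cell, which also held 6 Xcr1 UMIs and passed the class II limit. Without that library Irf7 was called at a log2 fold change of 2.57 (edgeR adjusted p = 0.0173). Ifitm3, which blocks virus entry, was at 3016, 2878, 1828 and 1409 CPM in control and at 4737, 3810, 5039 and 3299 CPM in BG. Its log2 fold change was 0.86 (SE 0.24, adjusted p = 0.129), again with no overlap and no call. Bst2 (1.01), Slfn5 (0.58) and Ly6e (0.15) were not called. The summed level of the list was 7497 to 10937 CPM in control and 11948 to 25049 CPM in BG libraries. No interferon gamma gene of 23 passed the filter.

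MHC class I genes, which present peptides to CD8 T cells, had 5 members tested of 20 and 0 called, with a median log2 fold change of 0.43. H2-K1, a classical heavy chain, was at 2062, 1765, 1748 and 2311 CPM in control and at 3069, 2916, 2929 and 3832 CPM in BG. B2m, the shared light chain, was at 3909, 2667, 2225 and 2424 CPM in control and at 4637, 4139, 4730 and 4644 CPM in BG. Neither gene overlapped between the groups, beside 4.12% of all genes tested with every BG library above every control library. The log2 fold changes were 0.70 (SE 0.19, edgeR adjusted p = 0.117) and 0.69 (SE 0.20, adjusted p = 0.160), and H2-D1, Psmb8 and Psme1 had 0.40, 0.43 and -0.12. Each of the 2 was called in 1 of 16 alternatives. H2-K1 was called with at most 2500 genes per barcode (0.93, edgeR adjusted p = 0.046). B2m was called without control replicate 1 (0.87, edgeR adjusted p = 0.026).

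MHC class II genes, which present peptides to CD4 T cells, had 5 of 9 members tested and 0 called, with a median of -0.87. Cd74, the invariant chain, was at 1139, 7234, 3814 and 5129 CPM in control and at 734, 753, 5221 and 3807 CPM in BG, so the libraries spread widely within each group. Its log2 fold change of -0.67 (SE 0.54, edgeR adjusted p = 0.762) turned to 0.69 on the 65 cells without many UMIs of other types. H2-Eb1 was at 0 in control replicate 1 and BG replicates 5 and 6, which had no cell with 30 or more class II UMIs. Kupffer cell markers, 11 of 14 with a UMI, held 211 UMIs in control and 208 in BG, and their summed level was 92.3 to 4904 CPM in control libraries against 178 to 3438 CPM in BG libraries. They did not follow Cd74 in every library: BG replicate 8 had C1qa and C1qc at 0. Dendritic cell markers, 6 of 10 with a UMI, summed to 0 to 230 CPM in control libraries and to 0 in every BG library. The cell of control replicate 2 with 7249 UMIs held all 6 UMIs of the dendritic cell marker Xcr1 and 157 Cd74 UMIs. It held 0 UMIs of Nr4a1 and Spn, and is among the cells with 30 or more class II UMIs. The part of dendritic cells in the class II values was not tested.

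**Figure D5:**
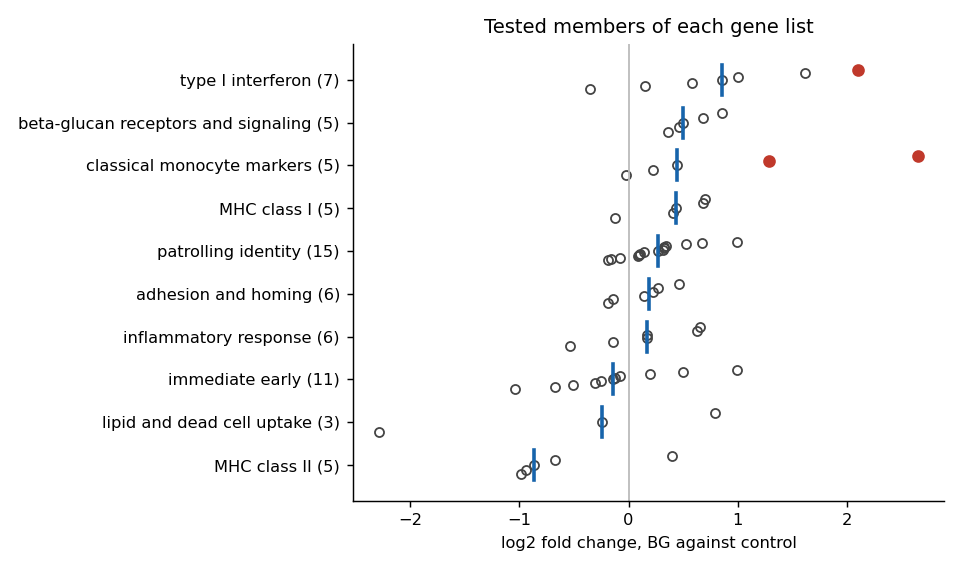
Log2 fold changes, BG against control, of the tested members of each gene list with 3 or more tested genes (number in brackets), from the fit across all 8 libraries. Filled red points are called genes, open points are not called, blue bars are list medians and the grey line is the median of all 388 genes. The type I interferon list has the highest median (0.86) and the MHC class II list the lowest (-0.87). Only genes that passed the filter on low counts enter a median.

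Classical monocyte markers had 5 of 16 members tested, of which Ly6c2 and Plac8 rose, beside 4 of 388 genes overall (1.03%), with a median log2 fold change of 0.45. Ly6c2 passed the filter mainly through the BG libraries, so this count and the median are descriptions. S100a4 had 0.45, the chitinase-like Chil3 0.23 and Lyz2 -0.02, and none of these was called. Chil3 was at 1200, 595, 596 and 338 CPM in control and at 1368, 423, 946 and 508 CPM in BG, fully overlapping. The summed level of the list was 10171 to 14804 CPM in control and 13070 to 23687 CPM in BG.

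No identity gene of patrolling monocytes passed the test. Of 24, 15 were tested and 0 called, with 12 above 0, beside 194 of all 388 genes tested, and a median of 0.27. Nr4a1 was at 739, 384, 437 and 225 CPM in control and at 1068, 1599, 509 and 685 CPM in BG, with a log2 fold change of 1.00 (SE 0.40, edgeR adjusted p = 0.417). Cebpb, a transcription factor on which these cells depend, was at 3109, 1650, 2026 and 1240 CPM in control and at 4270, 3763, 2510 and 2487 CPM in BG (0.67, SE 0.27, adjusted p = 0.417). Both overlapped between the groups. Cx3cr1 was at 462, 269, 278 and 451 CPM in control and at 400, 329, 236 and 305 CPM in BG (-0.19, SE 0.33, adjusted p = 0.907). Spn (0.33), Gngt2 (0.35), Itgal (0.15), Ear2 (0.10) and Pou2f2 (0.08) were not called.

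β-glucan receptor and signaling genes had 5 of 18 members tested, all above 0 with a median of 0.50, and 0 called. Over all 388 genes tested, 194 were above 0. Prkcd, a kinase downstream of the β-glucan receptor Dectin-1, was at 400, 288, 278 and 169 CPM in control and at 467, 706, 491 and 533 CPM in BG, without overlap (0.86, SE 0.31, edgeR adjusted p = 0.381). It passed the filter on low counts mainly through the BG libraries. Since low genes could pass only if high in 1 group, the shared direction and the median of this list are descriptions. The Src family kinases Fgr and Lyn had 0.68 and 0.36, and Itgb2, the beta chain of LFA-1 and of complement receptor 3, had 0.46. The gene of Dectin-1 itself, Clec7a, was not analysed here.

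No gene of acute activation was called. Inflammatory genes had 6 of 25 members tested and 0 called, with a median of 0.17, from Nfkb1 at -0.53 to the chemokine Ccl3 at 0.65. Immediate early genes had 11 of 15 tested and 0 called, with a median of -0.14. They ran from Fosb at -1.04 to Nr4a1 at 1.00, which is also on the identity list. Fosb, a component of the transcription factor AP-1, was at 800, 672, 834 and 676 CPM in control and at 667, 0, 455 and 228 CPM in BG. All 4 BG values were below the controls, by a narrow margin in replicate 5, and the log2 fold change of -1.04 (SE 0.46, edgeR adjusted p = 0.513) was not called. Nfkb1 and the ribosomal protein gene Rps13, which is on no list and was named after its values were seen, were also lower in every BG library.

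Of the remaining lists, adhesion and homing had 6 of 19 members tested with a median of 0.19, and lipid and dead cell uptake had 3 of 18 with a median of -0.24, and 0 were called in either. Apoe, a lipoprotein that macrophages secrete, was at 2431, 6294, 13032 and 33482 CPM in control and at 2302, 1882, 4111 and 2741 CPM in BG. Its log2 fold change was -2.28 (SE 0.55, edgeR adjusted p = 0.0636), and 1 cell of control replicate 4 held 577 of its UMIs, 43.4% of all in control. On the 65 cells without many UMIs of other types it was -0.41. Apoe was called as lower in 3 of 16 alternatives. These were no filter on low counts (edgeR adjusted p = 3.1e-09), without control replicate 1 (0.0189) and without BG replicate 7 (0.0223). The Fc receptor chain Fcer1g (0.31), the survival factor Mcl1 (-0.41), the chromatin protein Hmgb2 of the mitosis list (-0.13) and the glycolytic enzyme Gapdh (0.65) were each the only tested member of their list and were not called. No DNA replication gene was tested. No marker of Kupffer, dendritic, T and NK, B or endothelial cells, neutrophils, hepatocytes or platelets and red cells was tested either. Summed T and NK markers were at 30.8 to 2086 CPM in control libraries and 47.0 to 1675 CPM in BG libraries, neutrophil markers at 0 to 2360 and 0 to 127 CPM, and hepatocyte markers at 249 to 477 and 94.1 to 381 CPM.

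Further genes without overlap were Ms4a6b, Clec4a3, Anxa2, Gpx1, Fxyd5, Gng5 and Tmsb10, which were named after their values were seen. Ms4a6b, a membrane protein of monocytes and lymphocytes, was at 215, 326, 79.5 and 169 CPM in control and at 534, 376, 528 and 431 CPM in BG (1.11, edgeR adjusted p = 0.282). Clec4a3, a C-type lectin of monocytes, was at 369, 269, 159 and 225 CPM in control and at 467, 753, 455 and 431 CPM in BG (0.94, adjusted p = 0.381). Neither was called.

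Promoters are shown for both called genes that have one in the RefSeq table (GRCm38.p6), and for the 2 genes without overlap whose promoter held an interferon-stimulated response element. The element was searched on either strand as GAAA, any 2 bases and GAAA, 10 bases in all. It was present in 1131 of 32851 promoters of 250 bases before to 50 after the start (3.44%). Counted by gene, in any of its promoters, it was present in 1079 of 27025 genes (3.99%). The same count gave 23 of 293 tested genes with a promoter (7.85%) and 2 of 14 genes without overlap, B2m and Ifitm3. Ly6c2 and Plac8 each have a further promoter there, which held no match and is not shown. The sequences run 5′ to 3′ on the gene's strand from 250 bases before to 30 after the start, and capitals mark the element. They are Ly6c2 at chr15:75111942-75112221 (minus strand), Plac8 at chr5:100572176-100572455 (minus strand), Ifitm3 at chr7:141010715-141010994 (minus strand) and B2m at chr2:122147437-122147716 (plus strand).
Ly6c2: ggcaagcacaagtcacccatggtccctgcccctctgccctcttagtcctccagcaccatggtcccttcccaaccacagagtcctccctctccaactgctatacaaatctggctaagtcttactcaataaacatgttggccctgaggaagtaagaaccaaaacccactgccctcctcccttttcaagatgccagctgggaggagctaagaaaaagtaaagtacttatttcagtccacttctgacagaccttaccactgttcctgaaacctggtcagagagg
Plac8: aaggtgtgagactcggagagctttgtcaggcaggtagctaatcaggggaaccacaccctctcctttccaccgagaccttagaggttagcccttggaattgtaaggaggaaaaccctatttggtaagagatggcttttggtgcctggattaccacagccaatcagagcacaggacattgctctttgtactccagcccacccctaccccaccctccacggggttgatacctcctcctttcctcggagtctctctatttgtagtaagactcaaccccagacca
Ifitm3: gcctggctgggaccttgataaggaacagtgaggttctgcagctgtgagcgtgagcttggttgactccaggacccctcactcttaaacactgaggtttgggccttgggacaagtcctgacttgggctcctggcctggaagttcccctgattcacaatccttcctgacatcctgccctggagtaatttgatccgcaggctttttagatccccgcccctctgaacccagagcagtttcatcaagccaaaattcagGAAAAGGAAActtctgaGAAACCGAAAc
B2m: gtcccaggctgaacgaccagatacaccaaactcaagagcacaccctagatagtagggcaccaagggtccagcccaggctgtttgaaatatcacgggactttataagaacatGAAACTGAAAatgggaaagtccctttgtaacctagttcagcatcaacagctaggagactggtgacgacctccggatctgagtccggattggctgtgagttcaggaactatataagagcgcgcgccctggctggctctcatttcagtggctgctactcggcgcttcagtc
Ly6c2 and Plac8, both called, held no match in this window, and B2m and Ifitm3, not called, held 1 and 2. A match is a stretch of letters and not a measured site.

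The response of patrolling monocytes was then compared with that of classical monocytes from the same mice, by the interaction of cell type and treatment with the library as a block. Of 1260 genes tested, 0 responded more (0%) and 0 less (0%) in patrolling monocytes by edgeR, with 48 at an unadjusted p under 0.05, and DESeq2 gave 0 and 0 calls with 28. Classical monocytes alone had 26 genes higher (1.77%) and 5 lower (0.34%) of 1471 tested. Among the genes described above, Irf7 had log2 fold changes of 1.65 in classical and 1.61 in patrolling monocytes, Plac8 of 1.03 and 1.28, H2-K1 of 0.75 and 0.70 and Ifi27l2a of 1.13 and 2.11. The Ifi27l2a responses differed by 0.95 on the log2 scale (SE 0.26), which was not called after adjustment over 1260 genes (edgeR adjusted p = 0.954). Without control replicate 1, Klf4 was called as responding more and Cd74, H2-Aa, H2-Ab1 and H2-Eb1 as responding less in patrolling monocytes. The UMIs of H2-Aa, H2-Ab1 and H2-Eb1 came mostly from 10 cells, as given above, whereas Cd74 had a UMI in 49 of the 76 cells.

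Kupffer cells alone had 1 gene higher (0.184%), Ly6a, and 0 lower (0%) of 544 tested after BG. Ly6a held 13 UMIs in control and 167 in BG Kupffer cells. It passed the filter on low counts mainly through the BG libraries, so this call is a description. In the comparison of responses, 842 genes were tested, with 57 at an unadjusted p under 0.05. As responding less in patrolling monocytes, 2 were called (0.238%), Acp5 and Ly6a, and 0 were called as responding more (0%). Ly6a (Sca-1), an interferon-inducible Ly6 protein, was at 123, 211, 318 and 395 CPM in control and at 200, 141, 400 and 279 CPM in BG patrolling monocytes, fully overlapping. In Kupffer cells it was at 234, 0, 155 and 0 CPM in control and at 1156, 723, 721 and 801 CPM in BG. The difference of the responses was -3.65 on the log2 scale (SE 0.79, edgeR adjusted p = 0.0443). Acp5, the tartrate-resistant acid phosphatase of macrophages, was at 92.3, 76.8, 238 and 338 CPM in control and at 66.7, 47.0, 54.6 and 50.8 CPM in BG patrolling monocytes, from 19 and 8 UMIs in all. In Kupffer cells it was at 0, 135, 103 and 127 CPM in control and at 480, 181, 335 and 493 CPM in BG. These values come from 15 and 76 UMIs in all. The difference was -3.76 (SE 0.81, adjusted p = 0.0443). Each of the 2 genes was called in 6 of 13 fits, DESeq2 called 1 of them (Ly6a) as lower and 0 as higher, and control replicate 1 entered with only 3 Kupffer cells. Without control replicate 3 or 4, BG replicate 5 or BG replicate 8, 0 genes were called as lower, and without BG replicate 7 the counts were 2 higher and 10 lower. With no filter on low counts 0 genes were called, so the calls of Acp5 and Ly6a are a description.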

How the data were processed

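UMI counts per gene and barcode were measured by 10x 3′ scRNAseq in 8 livers, 4 control and 4 BG. The authors aligned reads to mm10 with Cell Ranger (6.1.2 in the file headers), introns included, and deposited the raw counts, unnormalized. Barcodes with 200 to 5000 genes and at most 30% mitochondrial UMIs were kept (the study used an upper limit of 2500). Of 53654 kept barcodes, the gate took 76, with 17884 to 59466 UMIs per library, so that 1 UMI equals 18.2 to 56.4 CPM. Intervals cover counting error only. The members, gate and 24 gene lists were chosen with earlier results of these data known.

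Counts were summed per library and tested with edgeR 4.0.16 (filterByExpr, TMM, quasi-likelihood F test, Benjamini-Hochberg adjustment) in R 4.3.3, with DESeq2 1.42.0 as the alternative. Gate genes were left out of the tests. The planned minimum of 10 cells left 1 control library, so a fit with all 8 libraries was added afterwards, in which a library can hold as few as 4 cells. Comparisons of cell types had library as a block. Shares were compared by exact permutation of libraries. Cells with 10 or more complement UMIs, 10 or more S100a8 and S100a9 UMIs or 30 or more MHC class II UMIs defined an alternative that was added after the data were seen. Named genes were the called genes, list members, called interaction genes and gate genes, and any other is said to be named after its values were seen. The sources used here do not say in what order or batch the mice were processed. The scripts were tested on simulated data. Sequences came from RefSeq. Mx1 and Mx2 were not analysed here, and some other genes are not reported here.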

Additional observations from a re-analysis of the deposited data

Results flagged for a closer look

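In groups of 4 libraries, 72 groups were examined for a library far from the other 3, and 8 had one (chance gives about 1 in 20). The Plac8 level of control replicate 2 (2571 CPM) lay above the other controls (1447 to 1635 CPM), which is toward the BG libraries. Ctss in control replicate 4 was high at 2086 CPM (others 1170 to 1209). Control replicate 1 was high in H2-D1 (2555 CPM), Ly6e (2708 CPM) and Lyz2 (9541 CPM). H2-K1 in BG replicate 8 was high at 3832 CPM, B2m in BG replicate 6 was low at 4139 CPM, and Clec4a3 in BG replicate 6 was high at 753 CPM. In control replicate 4, which held 4 cells, a value rests on few cells.

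Acp5 (-3.76 on the log2 scale) and Ly6a (-3.65) were called in the interaction of patrolling monocytes and Kupffer cells (edgeR adjusted p = 0.0443 for each). Each was called in 6 of 13 fits, and with no filter on low counts 0 genes were called, so these calls are a description. In control Kupffer cells, Acp5 and Ly6a rest on 15 and 13 UMIs.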

How the results depend on the processing

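The share of patrolling monocytes reversed to -0.0723 percentage points with at most 10% mitochondrial UMIs, where the ratio to classical monocytes could not be computed because a library held no cell. In the planned fit of 4 libraries (0 higher, 2 lower), the counts were 3 higher without a filter on low counts, 4 higher and 0 lower with no minimum of cells, and 0 to 19 higher and 2 to 9 lower without each BG library. Other gate settings and leaving out control replicate 2 could not be fitted there. In the fit of 8 libraries (4 higher, 0 lower), no filter gave 7 and 4, the 10% limit 0 and 0, 3 or more markers 1, no UMI of 16 genes of other cells 1, and leaving out each library 2 to 6 higher and 0 to 1 lower. Ifi27l2a was called in 14 of 16 alternatives (log2 fold change 1.90 to 2.95), Ly6c2 in 12 of 14 fitted (2.11 to 3.08), Plac8 in 11 of 16 (1.13 to 1.97) and Ly6i had 2.47 to 2.95 in 11, but was tested only where its BG level passed the filter, apart from the fit with no filter (2.69). Against classical monocytes, no filter gave 5 lower (S100a9, Cd74, H2-Aa, H2-Ab1 and H2-Eb1), and leaving out each library 0 to 1 higher and 0 to 4 lower. Against Kupffer cells, DESeq2 gave 1 lower, no filter 0, at most 2500 genes 0, and leaving out each library 0 to 10 lower and 0 to 2 higher. Of 469 values of 33 named genes, 444 kept direction and side of the threshold, 9 lost and 8 gained a call, and 8 in 5 genes reversed: Cebpb (-0.092), H2-D1 (-0.41) and Ly6e (-0.073) under the 10% limit, Cd74 with no UMI of 16 genes (0.59) and without cells with many UMIs of other types (0.69), and Lyz2 without 1 library (-0.18 to 0.10 over the libraries left out). The causes were not tested. With 1 UMI worth up to 56.4 CPM, low genes cannot be compared. No paired analysis was possible because the replicate numbers of the groups do not overlap.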

Other observations

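Cxcl10, a chemokine induced by interferon, was not tested because of its low counts, yet single cells held many of its UMIs. BG cells held 122 UMIs and control cells 15. Of the BG UMIs, 121 were in 4 cells of BG replicate 7, with 59 in 1 cell, and BG replicates 6 and 8 held 0. Gzma, a protease of cytotoxic lymphocytes, held 68 UMIs in BG cells and 12 in control cells, with 36 in 1 cell of BG replicate 8, 28 in 1 cell of BG replicate 7 and all 12 control UMIs in 1 cell of control replicate 2. The 3 cells with most Gzma were among the 11 with many UMIs of other cell types.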
